A study of Mus musculus with 8 samples.

Results

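The circadian clock genes examined here were the 10 genes Arntl, Clock, Npas2, Per1, Per2, Per3, Cry1, Nr1d1, Dbp and Ciart, chosen by name among the 35975 mouse genes of the table. All 10 were found, and 9 of them had at least 10 estimated counts in every library. The samples were livers of C57BL/6 mice (C57BL/6J in the methods of the study), aged 8 to 10 weeks when bought, with 4 mice infused with normal saline and 4 infused with 4-hydroxyphenylacetic acid (4-HPAA), a phenolic acid made by gut microbes. Every mouse carried a portal vein cannula fed by an osmotic pump under the skin for 2 weeks, was housed alone after surgery, and was anesthetized with isoflurane at necropsy. The pumps delivered 0.25 µL per hour of normal saline, or of 55 mM 4-HPAA dissolved in it. The time of day at which each liver was taken, and the light schedule, are not given in the sources used here, and no liver of known time was among the samples.

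The circadian clock is a feedback loop that runs in nearly every cell. The proteins ARNTL (also called BMAL1), CLOCK and its relative NPAS2 pair up, bind E-box sequences, and switch on the Per, Cry, Nr1d1, Dbp and Ciart genes, whose PER, CRY and CIART proteins then inhibit the pair. NR1D1 (REV-ERBα) represses Arntl, Clock and Npas2 through ROR elements, so that activator and Nr1d1 transcripts peak at opposite times of day. In the liver of a night-active mouse, Nr1d1 transcripts are known to peak around the middle of the light phase, those of Dbp and Ciart somewhat later, those of the Per genes around dusk, those of Cry1 late in the night, and those of Arntl, Clock and Npas2 around the end of the night.

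Promoter sequence is shown for the 6 clock genes in which a search for the clock's binding letters found a match, to show where those letters lie. The sequences are the 250 bases before the annotated start (RefSeq, GRCm38.p6), 5′ to 3′ on the strand of the gene, and capitals mark the motifs. Ciart lies on the minus strand (chr3:95882229-95882478), with the E-box CACGTG 116, 58 and 44 bases before the start. Nr1d1, also on the minus strand (chr11:98775378-98775627), has the related letters CACGTT, read on the other strand, 28 bases before the start. Cry1 on the minus strand (chr10:85185055-85185304) has both, CACGTT read on the other strand at 79 bases and CACGTG at 60. Per1 on the plus strand (chr11:69098699-69098948) has CACGTG at 166 bases and the D-box TTATGNAA, the kind of site that DBP binds, at 24. Per3 on the minus strand (chr4:151044666-151044915) has TTATGNAA at 205 and at 158 bases. For Arntl on the plus strand, a stretch of 28 bases (chr7:113207531-113207558) just after the second of its annotated starts shows TAGGTCA, the core of a ROR element, at position 31 from that start.
Ciart: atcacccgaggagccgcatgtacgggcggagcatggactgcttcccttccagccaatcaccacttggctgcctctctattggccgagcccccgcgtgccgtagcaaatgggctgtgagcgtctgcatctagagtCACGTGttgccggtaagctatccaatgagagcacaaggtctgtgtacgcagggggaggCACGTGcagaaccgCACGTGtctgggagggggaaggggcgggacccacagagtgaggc
Nr1d1: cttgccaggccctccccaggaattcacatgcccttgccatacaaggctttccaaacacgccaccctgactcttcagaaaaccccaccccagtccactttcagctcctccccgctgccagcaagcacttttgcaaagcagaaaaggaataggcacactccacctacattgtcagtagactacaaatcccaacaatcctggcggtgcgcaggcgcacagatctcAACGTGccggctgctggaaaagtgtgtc
Cry1: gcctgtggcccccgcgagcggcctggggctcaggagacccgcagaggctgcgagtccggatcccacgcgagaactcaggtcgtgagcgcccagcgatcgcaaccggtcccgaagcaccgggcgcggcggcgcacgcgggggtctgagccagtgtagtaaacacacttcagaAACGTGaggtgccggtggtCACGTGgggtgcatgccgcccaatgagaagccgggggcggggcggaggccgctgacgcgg
Per1: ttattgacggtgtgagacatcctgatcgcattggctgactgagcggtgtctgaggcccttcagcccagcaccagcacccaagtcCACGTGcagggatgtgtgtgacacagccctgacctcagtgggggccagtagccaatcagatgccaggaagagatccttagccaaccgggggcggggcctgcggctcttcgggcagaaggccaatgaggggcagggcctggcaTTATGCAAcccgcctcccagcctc
Per3: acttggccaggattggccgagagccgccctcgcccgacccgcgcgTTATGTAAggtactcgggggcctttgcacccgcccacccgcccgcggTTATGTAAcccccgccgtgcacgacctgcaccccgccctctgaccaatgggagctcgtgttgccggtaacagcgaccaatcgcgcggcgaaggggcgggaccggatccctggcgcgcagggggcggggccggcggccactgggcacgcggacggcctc
Arntl: aggcagaaagTAGGTCAgggacggaggt

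The motifs were searched on both strands in windows from 250 bases before to 50 after each start. Of 32851 such windows over all genes, CACGTG was in 7.15%, CACGTT in 4.68%, TAGGTCA in 2.61%, TGGGTCA in 3.98%, TTATGNAA in 3.38% and TTACGTAA in 0.119%. Windows were at hand for 9 of the 10 clock genes, all but Per2, with 13 windows in all. The shares above are per window, whereas a clock gene was counted once if any of its windows matched. CACGTG was found for 3 of the 9 (Ciart, Cry1 and Per1), CACGTT for 2 (Cry1 and Nr1d1), TTATGNAA for 2 (Per1 and Per3), TAGGTCA for 1 (Arntl), and TGGGTCA and TTACGTAA for 0. The windows of Clock, Npas2 and Dbp held none of these letters. A match is a run of letters only.

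The libraries were alike in depth, with total estimated counts from 29559978 to 30673398. Transcripts of hepatocyte markers (Alb, Apoa1, Ttr, Serpina1a, Cps1 and Tat) summed to between 95260 and 127500 CPM (counts scaled to the size of each library, with TMM factors) in all 8 libraries, and 4 of the 5 markers of pancreatic acinar cells had at most 3 counts in any library. Transcripts of 4 genes of the Y chromosome summed to between 152 and 180 CPM, so all 8 livers were from males by this measure, where the methods of the study name mice of both sexes. Red cell markers (4 globin genes and Alas2) summed to 2557 CPM in normal saline replicate 2, against 246 to 376 in the rest of its group, and to 734 in 4-HPAA replicate 4, against 152 to 163. In bulk liver, fewer cells of a type and less RNA per cell cannot be told apart.

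Per length of transcript, the clock genes covered a wide span of levels. Dbp, which encodes a D-box activator of liver genes, was the highest at a mean of 45.1 CPM per kilobase over the 8 livers. Ciart, a repressor of the ARNTL pair, followed at 19.3, then Per1 at 12.1, Per3 at 10.1, Per2 at 7.35, Nr1d1 at 7.24, Cry1 at 4.74, Clock at 3.14, Arntl at 0.732 and Npas2 at 0.0235 CPM per kilobase. Dbp lay above Ciart, Ciart above Per1, Per3 above Per2, Cry1 above Clock, Clock above Arntl and Arntl above Npas2 in 8 of 8 livers. Per1 was above Per3 in 7 of 8, and Per2 above Nr1d1 and Nr1d1 above Cry1 in 5 of 8 each, so the order of these neighbours was not the same in every liver. Their levels were not tested against each other. Dbp, Ciart, the Per genes, Nr1d1 and Cry1 all stood above Clock, Arntl and Npas2 in all livers. This compares the levels of different genes and places no liver in the cycle. The margin differed widely from liver to liver. Dbp was 22.9 times Arntl in 4-HPAA replicate 3 and 270 times Arntl in 4-HPAA replicate 1, both per length. In the plot of CPM by group, the same spread is visible within normal saline and within 4-HPAA.

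**Figure D1:**
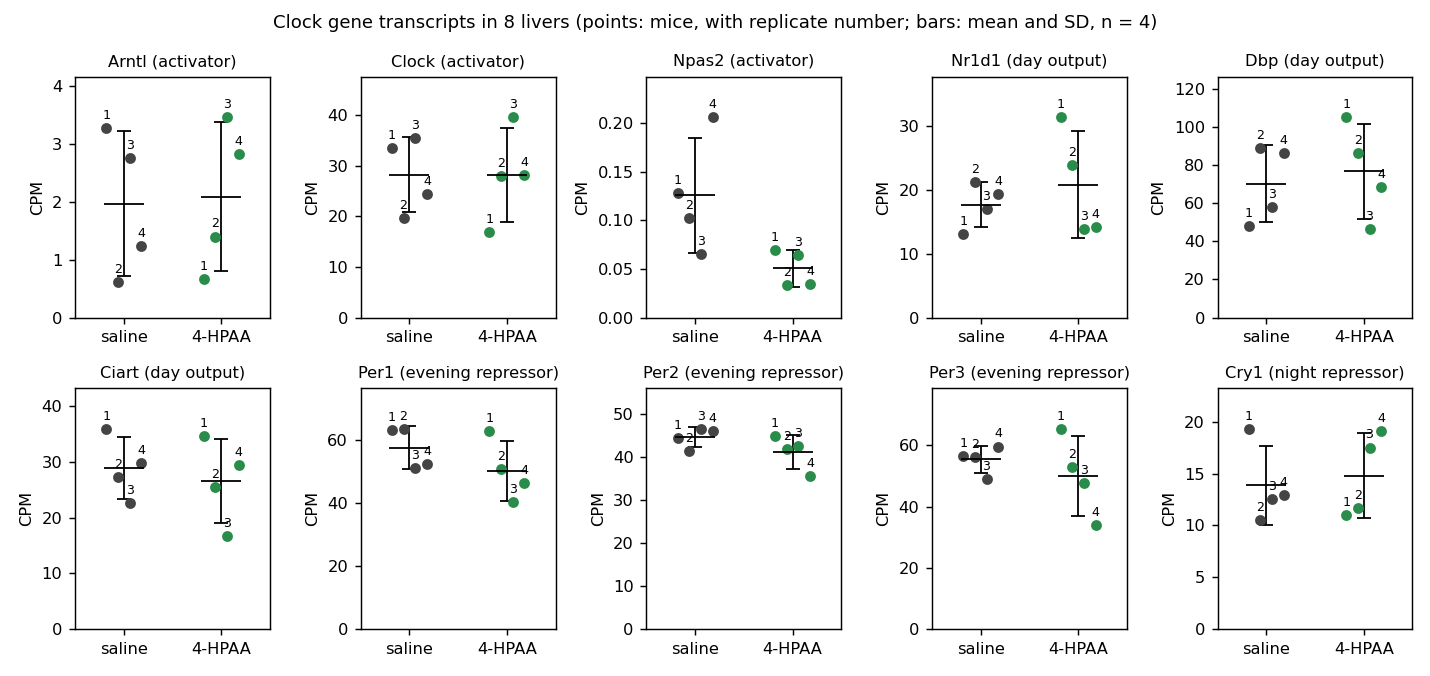
CPM of each clock gene (vertical axis, from 0) in the 4 normal saline and 4 4-HPAA livers. Points are mice, labelled with their replicate number, and the line and bar are the mean and SD of 4. The groups overlap in all 10 genes, and Arntl runs from 0.617 to 3.46 CPM.

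Arntl (ENSMUSG00000055116, chr7:113207465-113314126), whose protein is the partner that CLOCK and NPAS2 share, was the most variable of the 9 clock genes tested. Its position, like those below, is in GRCm38. It was at 3.27, 0.617, 2.75 and 1.24 CPM in normal saline replicates 1 to 4, and at 0.663, 1.40, 3.46 and 2.83 CPM in 4-HPAA replicates 1 to 4. Each group held both low and high livers and the groups overlapped over nearly their whole range. The highest liver was 5.61 times the lowest, and the estimated counts behind these values ran from 18 to 107. The SD of log2 CPM over the 8 livers was 0.97, larger than that of 99.5% of the 12883 genes tested. The log2 fold change of 4-HPAA over normal saline was 0.08 (standard error 0.56, 95% interval from -1.29 to 1.46), with an adjusted p of 1.00 in edgeR's quasi-likelihood fit over all genes, as for the other 8. It turned to -0.28 without 4-HPAA replicate 3, -0.21 without normal saline replicate 2, -0.10 without 4-HPAA replicate 4, -0.09 without normal saline replicate 4, and -0.39 with the 2 libraries rich in red cell transcripts left out together.

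Clock (ENSMUSG00000029238, chr5:76209868-76304792), which encodes the partner of ARNTL, was at 33.5, 19.7, 35.4 and 24.4 CPM with normal saline and at 16.8, 28.0, 39.6 and 28.2 CPM with 4-HPAA (replicates 1 to 4). The lowest livers were 4-HPAA replicate 1 and normal saline replicate 2, the lowest pair for Arntl as well. Means were 28.2 ± 7.44 CPM and 28.2 ± 9.30 CPM (SD, n = 4 per group), and the log2 fold change was -0.003 (standard error 0.25, 95% interval from -0.62 to 0.62). It turned to 0.09, 0.12 and 0.18 without normal saline replicates 1 and 3 and 4-HPAA replicate 1. Npas2 (ENSMUSG00000026077, chr1:39193731-39363236), which can stand in for Clock, held only 4, 3, 2 and 6 counts with normal saline and 2, 1, 2 and 1 with 4-HPAA. These counts are too few for a fold change or a test.

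Nr1d1 (ENSMUSG00000020889, chr11:98767932-98775333), the nuclear receptor that represses Arntl, went the other way from liver to liver. It was at 13.1, 21.2, 16.9 and 19.2 CPM with normal saline and at 31.3, 23.8, 13.9 and 14.1 CPM with 4-HPAA (replicates 1 to 4). 4-HPAA replicate 1, next to lowest for Arntl, was the highest for Nr1d1, and normal saline replicate 1 was the lowest. The means were 17.6 ± 3.51 and 20.8 ± 8.42 CPM (SD, n = 4 in each), and the log2 fold change was 0.24 (standard error 0.26, 95% interval from -0.40 to 0.88), which turned to -0.03 without 4-HPAA replicate 1. Nr1d1 shares 263 of its 3077 exonic bases with Thra on the opposite strand, which was at 5.80 to 8.48 CPM. The methods of the study name standard parameters for kallisto, whose default uses no strand, so reads of that stretch could not be told apart.

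Dbp (ENSMUSG00000059824, chr7:45705088-45710203) was at 48.2, 88.9, 58.0 and 86.3 CPM with normal saline and at 105, 86.4, 46.6 and 68.7 CPM with 4-HPAA (replicates 1 to 4). As for Nr1d1, 4-HPAA replicate 1 was the highest, and the lowest livers were 4-HPAA replicate 3 and normal saline replicate 1. The means were 70.4 ± 20.3 and 76.7 ± 25.0 CPM (SD, n = 4 in each), and the log2 fold change was 0.12 (standard error 0.26, 95% interval from -0.52 to 0.76), which turned to -0.06 without 4-HPAA replicate 1 and to -0.02 without normal saline replicate 1. Sphk2, on the opposite strand, shares 539 of the 2993 exonic bases of Dbp and was at 35.2 to 42.6 CPM, with the same limit on reads.

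Ciart (ENSMUSG00000038550, chr3:95878503-95882251) was at 36.0, 27.2, 22.6 and 29.8 CPM with normal saline and at 34.7, 25.5, 16.7 and 29.5 CPM with 4-HPAA (replicates 1 to 4). In both groups replicate 1 was the highest and replicate 3 the lowest. Its log2 fold change was -0.12 (standard error 0.21, 95% interval from -0.63 to 0.40) and turned to 0.05 without 4-HPAA replicate 3 and to 0.0048 without normal saline replicate 1.

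The Per genes encode the PER proteins, which carry CRY into the nucleus, and they varied less than the genes above. Per1 (ENSMUSG00000020893, chr11:69095217-69109960), which also responds to glucocorticoids, was at 63.2, 63.7, 51.1 and 52.4 CPM with normal saline and at 63.1, 50.7, 40.4 and 46.4 CPM with 4-HPAA (replicates 1 to 4). Per2 (ENSMUSG00000055866, chr1:91415982-91459324) was at 44.4, 41.4, 46.6 and 45.9 CPM and at 44.8, 41.9, 42.5 and 35.6 CPM in the same order. Per3 (ENSMUSG00000028957, chr4:151003652-151044665) was at 56.6, 56.4, 49.1 and 59.6 CPM with normal saline and at 65.5, 52.9, 47.6 and 33.9 CPM with 4-HPAA. 4-HPAA replicate 4 was the lowest liver for both Per2 and Per3. The log2 fold changes were -0.20 for Per1 (standard error 0.14, 95% interval from -0.54 to 0.14), -0.11 for Per2 (standard error 0.09, interval from -0.32 to 0.09) and -0.15 for Per3 (standard error 0.17, interval from -0.56 to 0.26). They stayed below 0 with each library left out in turn, and that of Per3 was -0.009 without 4-HPAA replicate 4.

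Cry1 (ENSMUSG00000020038, chr10:85131700-85185064), the repressor of the late night, was at 19.3, 10.5, 12.6 and 13.0 CPM with normal saline and at 10.9, 11.7, 17.5 and 19.1 CPM with 4-HPAA (replicates 1 to 4). It was highest in normal saline replicate 1 and 4-HPAA replicates 4 and 3, and lowest in normal saline replicate 2 and 4-HPAA replicate 1. The means of 13.8 ± 3.81 and 14.8 ± 4.09 CPM (SD, n = 4 per group) gave a log2 fold change of 0.10 (standard error 0.23, 95% interval from -0.46 to 0.65), which turned to -0.06 without 4-HPAA replicate 4, to -0.01 without normal saline replicate 2 and to -0.17 without both.

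In the comparison of 4-HPAA with normal saline, edgeR's quasi-likelihood test called 0 of the 9 clock genes at an adjusted p of 0.05, where the share over all 12883 genes was 0%. DESeq2 called 2 genes, neither of them a clock gene. Before adjustment, 0 of the 9 had p below that threshold, as did 225 or 1.75% of all genes. The groups did not overlap in 0 of the 10 clock genes and in 1.2% of all genes tested. Of the 9, 4 were higher and 5 lower with 4-HPAA, with a median log2 fold change of -0.003, against 0.001 over all genes. By the exact permutation test over the 70 assignments of the livers (two-sided, smallest p possible 0.0286), the smallest p of the 9 was 0.143, for Per1. A p above the threshold does not show that the groups were alike, and the interval of Arntl is wide enough to hold a change of more than 2-fold either way. The 9 genes spread widely over the livers whatever the infusion. Their median range between the lowest and the highest liver was 1.10 on the log2 scale, against 0.51 over all genes tested, and 8 of the 9 had an SD above the median of all genes. Per2 was the exception, with a range of 0.39. A wide spread was not particular to the clock genes. Among the lists described below, the median range was 1.15 for glucocorticoid targets (Per1 among them) and 1.11 for genes of feeding and fasting. It was 0.82 for clock-controlled liver outputs, 0.53 for partners of the clock and 0.36 for genes that follow body temperature.

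**Figure D2:**
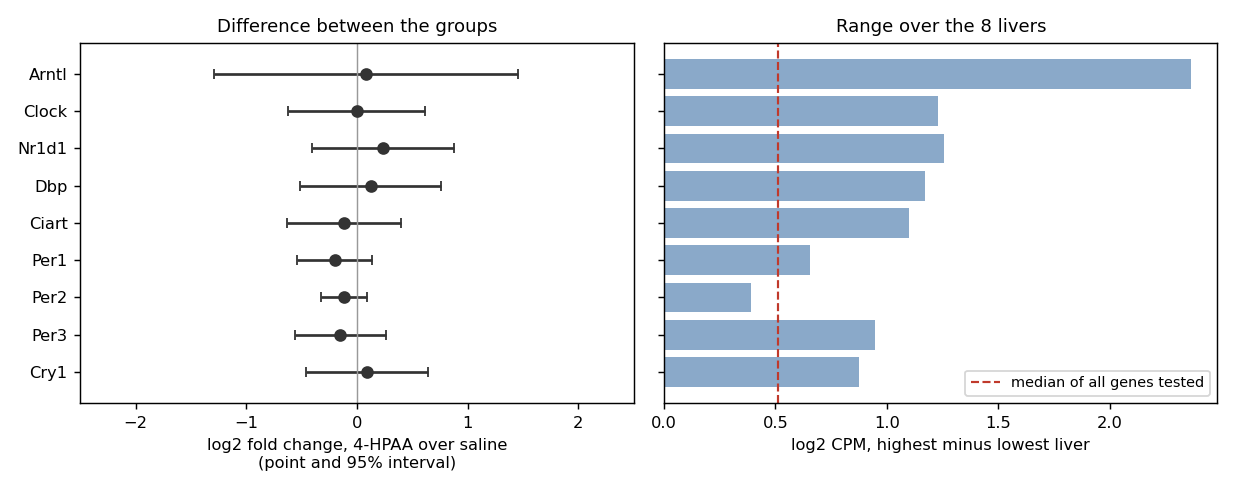
Left, the log2 fold change of 4-HPAA over normal saline for 9 clock genes, with 95% intervals (t distribution with 6 degrees of freedom, horizontal axis in log2 units). Right, the range of log2 CPM from the lowest to the highest of the 8 livers, with a dashed line at 0.51, the median over all genes tested. Every interval includes 0, while 8 of the 9 ranges lie beyond the dashed line.

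The phase relations of the loop were then read across the 8 livers. Ordered by Arntl from low to high, the livers were normal saline replicate 2, 4-HPAA replicate 1, normal saline replicate 4, 4-HPAA replicate 2, normal saline replicate 3, 4-HPAA replicate 4, normal saline replicate 1 and 4-HPAA replicate 3. Normal saline and 4-HPAA livers alternated along this order. The livers low in Arntl and Clock were high in Nr1d1 and Dbp, and those high in Arntl and Clock were low in them. Cry1 was high in the same livers as Arntl. Arntl, Clock and Cry1, which are known to climb from dusk into the night, were higher in the livers in which Nr1d1 and Dbp, known to decline over those hours, were lower. Ciart, placed above at the same time of day as Dbp, and the Per genes, known to peak around dusk, followed the order less closely. Pearson's r of log2 CPM with Arntl was -0.375 for Ciart, and -0.614, -0.146 and -0.609 for Per1, Per2 and Per3. Npas2 was too near the floor of the counts to be placed. Whether the livers were taken at different times was not tested, and the order gives no clock hour.

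**Figure D3:**
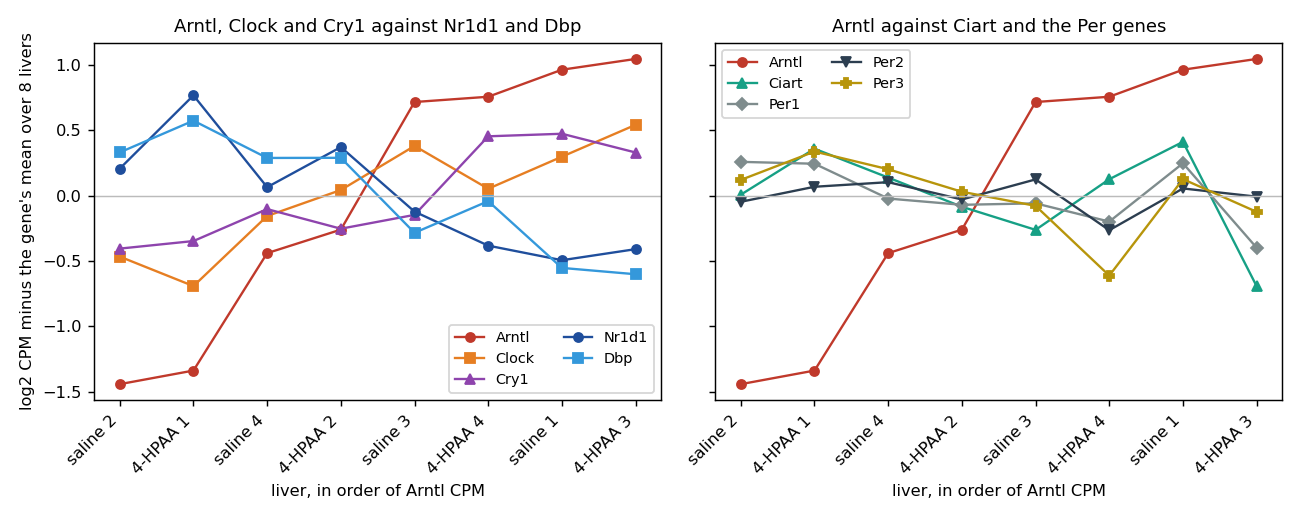
Log2 CPM of the clock genes, minus the mean of each gene over the 8 livers (vertical axis), with the livers in order of Arntl along the horizontal axis. Left, Clock and Cry1 climb with Arntl while Nr1d1 and Dbp decline, from 88.9 CPM in the first liver to 46.6 in the last for Dbp. Right, Ciart and the Per genes do not follow the order as closely.

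These relations were measured as correlations of log2 CPM over the 8 livers, each with an exact permutation test (two-sided), and p-values were adjusted over all 45 pairs of the 10 genes. By Pearson's r, 6 pairs passed. Arntl rose with Clock (r = 0.937, exact permutation p = 0.000744, adjusted p = 0.0335; Spearman's rho = 0.905, p = 0.00456, adjusted p = 0.0513). Arntl and Dbp ran opposite to each other (r = -0.911, exact permutation p = 0.00273, adjusted p = 0.0396, with rho = -0.929, p = 0.00223 and adjusted p = 0.0335). The same was seen for Arntl and Nr1d1 (r = -0.876, exact permutation p = 0.00528, adjusted p = 0.0396, with rho = -0.857, p = 0.0107 and adjusted p = 0.0689). Clock and Dbp were opposite (r = -0.909, exact permutation p = 0.00218, adjusted p = 0.0396, with rho = -0.952, p = 0.00114 and adjusted p = 0.0335). Nr1d1 and Dbp went together (r = 0.892, exact permutation p = 0.00394, adjusted p = 0.0396, with rho = 0.929, p = 0.00223 and adjusted p = 0.0335). Nr1d1 and Cry1 were opposite (r = -0.876, exact permutation p = 0.00479, adjusted p = 0.0396, with rho = -0.881, p = 0.00724 and adjusted p = 0.0652). By Spearman's rho 3 of the 45 pairs passed, Arntl with Dbp, Clock with Dbp, and Nr1d1 with Dbp.

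Without the 2 livers farthest from the median of Arntl, normal saline replicate 2 and 4-HPAA replicate 1, r was 0.826 for Arntl and Clock, -0.927 for Arntl and Dbp and -0.888 for Arntl and Nr1d1 (n = 6, adjusted p = 0.313, 0.281 and 0.281, exact permutation tests). Without the same livers, which were also the farthest for Clock, r was -0.902 for Clock and Dbp (adjusted p = 0.281, exact permutation test). The farthest livers for Nr1d1 were normal saline replicate 1 and 4-HPAA replicate 1, and without them r was 0.816 for Nr1d1 and Dbp and -0.897 for Nr1d1 and Cry1 (adjusted p = 0.366 and 0.281, exact permutation tests). All 6 pairs kept their sign, and 0 of the 6 passed over the 45 pairs with 6 livers. With single livers left out, r stayed between 0.922 and 0.967 for Arntl and Clock, -0.944 and -0.877 for Arntl and Dbp, and -0.952 and -0.837 for Arntl and Nr1d1. The adjusted p rose above the threshold without 4-HPAA replicate 1 or 3 or normal saline replicate 3 or 4 in all 3 pairs, without normal saline replicate 1 in those with Dbp and Nr1d1, and without 4-HPAA replicate 4 in that with Nr1d1. Clock with Dbp, Nr1d1 with Dbp and Nr1d1 with Cry1 were not followed with single livers left out. Groups of 4 are too few for a correlation within normal saline or within 4-HPAA. With the mean of each group subtracted, r was 0.940 for Arntl and Clock, -0.927 for Arntl and Dbp and -0.909 for Arntl and Nr1d1.

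Other pairs were looser. Arntl and Cry1 had r = 0.854 (exact permutation p = 0.0130, adjusted p = 0.0808, with rho = 0.857, p = 0.0107 and adjusted p = 0.0689). For Clock and Nr1d1 r was -0.814, for Clock and Cry1 0.673, and for Dbp and Cry1 -0.7825 (n = 8, adjusted p = 0.0808, 0.244 and 0.149, exact permutation tests). Without the 2 livers farthest from the median of the first gene of each pair, these r were -0.562, 0.35 and -0.548 (n = 6). Arntl ran against Per1 and Per3 with r = -0.614 and -0.609, and against Ciart and Per2 with r = -0.375 and -0.146 (n = 8, adjusted p from 0.266 to 0.920, exact permutation tests). The correlation with Per1 was -0.927 without normal saline replicate 1, which was high in both genes, and it then passed (adjusted p = 0.0446, n = 7, exact permutation test). Ciart went with Per1 at r = 0.778 and Per2 with Per3 at r = 0.791 (n = 8, adjusted p = 0.0997 and 0.172, exact permutation tests). Ciart did not follow Nr1d1 or Dbp as closely, at r = 0.291 and 0.439. Npas2 was near the floor of the counts and its correlations are not given.

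**Figure D4:**
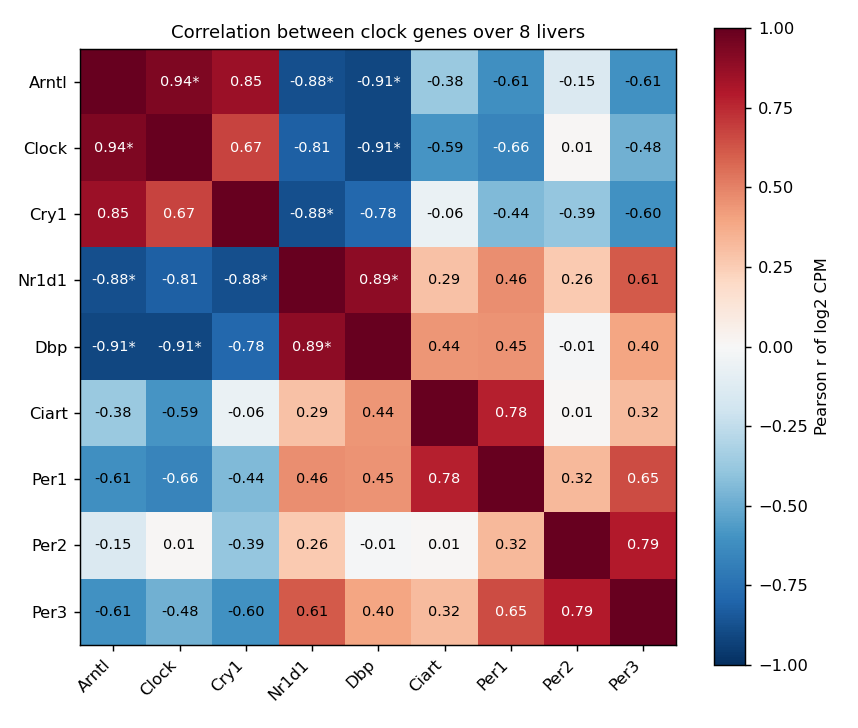
Pearson's r of log2 CPM over the 8 livers for each pair of 9 clock genes (color scale from -1 to 1), with an asterisk where the adjusted p over 45 pairs is under 0.05 (exact permutation test). Arntl, Clock and Cry1 form a block of positive values from 0.673 to 0.937 that is negative against Nr1d1 and Dbp. Within this pattern Arntl with Cry1, Clock with Cry1, Clock with Nr1d1 and Dbp with Cry1 did not pass and bear no asterisk.

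Among measures of the libraries, Arntl correlated at r = 0.700 with total estimated counts (exact permutation p = 0.0681; rho = 0.643, p = 0.0962; r = 0.526 without the 2 farthest livers) and at r = 0.732 with the summed markers of cholangiocytes (exact permutation p = 0.0471; rho = 0.762, p = 0.0368; r = 0.780 without those livers). The adjusted p of both over the 10 measures was 0.340 (n = 8). The 4 cholangiocyte markers summed to between 3.56 and 7.69 CPM. The part of these measures in the order of the livers was not tested. For the red cell markers r was -0.281, and with normal saline replicate 2 and 4-HPAA replicate 4 left out together the correlations of Arntl were 0.968 with Clock, -0.979 with Dbp and -0.949 with Nr1d1 (n = 6).

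Contrasts between phases use the same genes and so are no further evidence, but they give each liver a place. Mean log2 CPM of the activators Arntl, Clock and Npas2 minus that of Nr1d1, Dbp, Ciart, Per1, Per2 and Per3 was -3.81, -5.07, -3.97 and -4.42 with normal saline and -5.47, -4.73, -3.56 and -4.08 with 4-HPAA (replicates 1 to 4). The lowest liver was 4-HPAA replicate 1 and the highest 4-HPAA replicate 3, so 1 group held both ends. The group means were -4.32 ± 0.57 and -4.46 ± 0.83 (SD, n = 4 per group), a difference of -0.14 against a range of 1.91 over the livers. Its direction was not settled, since it was 0.10 without Npas2, whose counts are few, 0.03 without normal saline replicate 1 and 0.20 without 4-HPAA replicate 1, and -0.52 without the 2 libraries rich in red cell transcripts. The Per genes minus Nr1d1, Dbp and Ciart, a contrast that grows from day to evening, was 0.93, 0.51, 0.80 and 0.51 with normal saline and 0.23, 0.36, 0.97 and 0.32 with 4-HPAA. It was again lowest in 4-HPAA replicate 1 and highest in 4-HPAA replicate 3. Cry1 minus the Per genes, which grows from evening into the night, was -1.48, -2.32, -1.95 and -2.01 with normal saline and -2.37, -2.04, -1.30 and -1.001 with 4-HPAA. Here 4-HPAA replicate 4 was the highest, the liver with the lowest Per2 and Per3. The group difference was -0.22 in the contrast of Per genes and day genes, and ran from -0.38 to -0.13 with single livers left out (without 4-HPAA replicate 3 and normal saline replicate 1). In that of Cry1 and the Per genes it was 0.26, and it was 0.04 without 4-HPAA replicate 4, 0.49 without 4-HPAA replicate 1, and -0.09 without the libraries rich in red cell transcripts. The difference in Cry1 minus the Per genes was smaller than the SD of either group (0.347 with normal saline, 0.635 with 4-HPAA). That in the Per genes minus the day genes was smaller than the SD of the 4-HPAA livers (0.336), and about as large as that of the normal saline livers (0.213).

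Same-numbered livers of the 2 groups were alike in some values and not in others. Normal saline replicate 1 was among the highest for Arntl and 4-HPAA replicate 1 among the lowest, at 3.27 and 0.663 CPM. Replicate 3 was high in Arntl in both groups, at 2.75 and 3.46 CPM, and the lowest for Ciart in both. Replicates 1 and 4 of both groups overlapped with replicates 2 and 3, since both sets held livers near the lowest and near the highest Arntl, with 19 to 102 counts in the first and 18 to 107 in the second.

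Single transcripts showed how the counts of a gene were shared out. In Per1, the protein-coding transcripts ENSMUST00000021271 and ENSMUST00000166748, of 4671 and 4636 bases, traded counts from liver to liver. The first held 1129, 1212, 340 and 512 estimated counts with normal saline and 504, 1082, 1035 and 84.3 with 4-HPAA, and the second held 498, 252, 938 and 797 and then 944, 145, 5.84 and 1040. 4-HPAA replicates 3 and 4 lay at opposite ends, with 82.8% and 6.35% of the gene in the first transcript, while their gene totals were 1250 and 1328 counts. The totals of Per1 are therefore steadier than the division between these transcripts, which was not used for any comparison. In Dbp, the main transcript ENSMUST00000080885 held between 44.9% and 78.8% of the counts, and the intron-retaining ENSMUST00000211748 between 9.34% and 16.2%. Both extremes lay in 4-HPAA replicates 1 and 3, the livers with the highest and the lowest Dbp. Per2 and Cry1 were each read from a single transcript, with 99.99% and 99.95% of their counts.

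**Figure D5:**
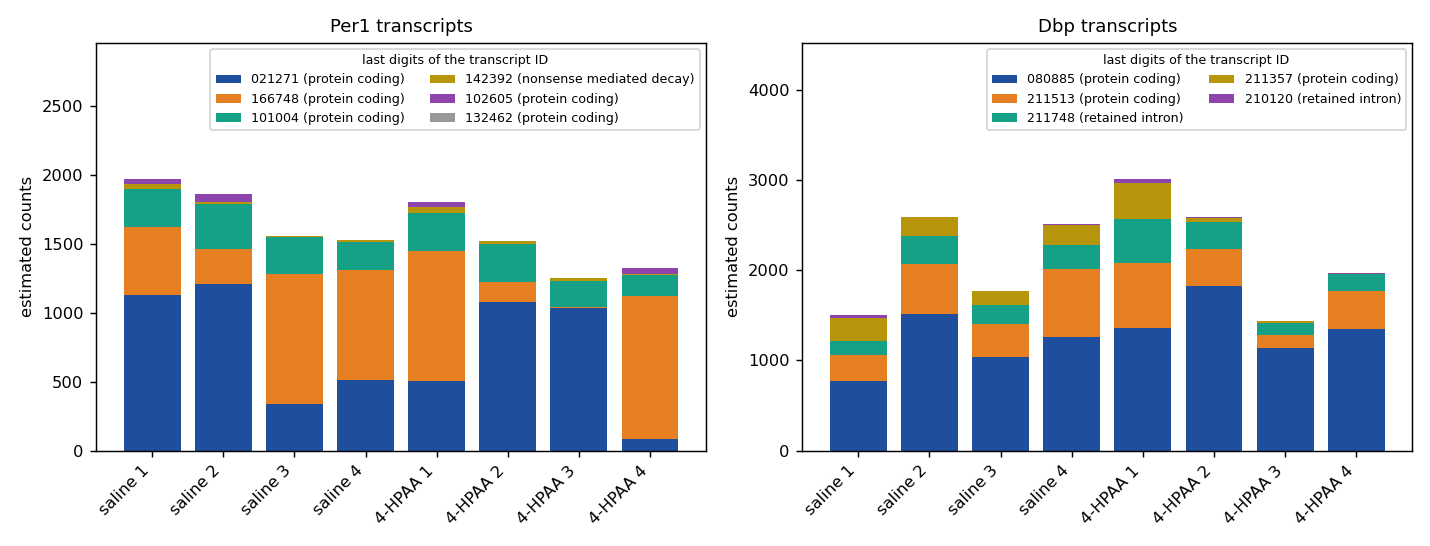
Estimated counts (vertical axis, stacked from 0) of the listed transcripts of Per1, left, and Dbp, right, in the 8 livers. The totals of Per1 lie between 1250 and 1974 counts while its 2 longest transcripts change places, and Dbp is tallest in 4-HPAA replicate 1 at 3015 counts.

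Partners of the clock outside the 10 genes were taken from a list of 18 genes, of which 17, all but Rorb, passed the filter on counts. By edgeR's quasi-likelihood test 0 were called, and 0 had p under 0.05 before adjustment, where the shares over all genes were 0% and 1.75%. Of the 17, 11 were higher and 6 lower with 4-HPAA, and the median range over the livers was 0.53 on the log2 scale. The widest ranges were those of Bhlhe41, a repressor that competes for E-boxes, from 0.819 to 2.03 CPM, and Arntl2, a relative of Arntl that was highest in normal saline replicate 2 at 2.98 CPM. Rora, the activator that competes with NR1D1 for ROR elements, ran from 54.8 to 99.2 CPM, and Bhlhe40 from 68.1 to 117 CPM. Every r with the contrast of activators against day and evening genes, here and below, rests in part on Npas2, whose counts are few. Over the 17 partners, this r ran from -0.864 for Tef to 0.801 for Nfil3. These genes, with Nr1d2 and Hlf, are named after their values were seen. Nfil3, a D-box repressor driven through ROR elements, ran from 11.2 CPM in normal saline replicate 2 to 18.6 in 4-HPAA replicate 4. Tef, a D-box activator like Dbp, ran from 189 CPM in 4-HPAA replicate 3 to 272 in 4-HPAA replicate 1. Hlf, a D-box activator of the same family as Dbp and Tef, did not share the sign of Tef, with r = 0.281. Nr1d2, the close relative of Nr1d1, spanned only 97.7 to 117 CPM, with r = -0.660. These are descriptions over 8 livers with no test.

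Genes that follow the clock or other daily signals were counted in the same fit. Of 24 clock-controlled liver outputs, 0 passed, with 13 higher and 11 lower. An unadjusted p under 0.05 was seen for 1 of the 24 (Cyp7a1), where the share over all genes was 1.75%. The widest were Rgs16, a regulator of G protein signaling, from 125 to 492 CPM, and Cyp7a1, the rate-limiting enzyme of bile acid synthesis, from 118 to 422 CPM, followed by Elovl3, a fatty acid elongase, and Tubb2a, a tubulin. Cyp7a1 was at 318 ± 69.9 and 210 ± 74.1 CPM (SD, n = 4 in each), which is -0.60 on the log2 scale, with a standard error of 0.25 and an adjusted p of 1.00 in the edgeR fit. Its r with the contrast of activators against day and evening genes was -0.214, and that of Rgs16 was -0.183. Over the 24 outputs r ran from -0.825 for Upp2, a uridine phosphorylase, to 0.924 for Slc45a3, a solute carrier, with Insig2 and Tars at 0.892 and 0.890. These last 4 genes are named after their values were seen, as a description with no test.

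Of 10 glucocorticoid targets, Per1 among them, 0 passed, 7 were lower and 3 higher with 4-HPAA, and 2 (Zbtb16 and Tsc22d3) had an unadjusted p under 0.05, where the share over all genes was 1.75%. Tsc22d3 is named after its values were seen. Mt2 and Mt1, the metallothioneins, were highest in normal saline replicate 1 at 433 and 603 CPM, as was Dusp1, a phosphatase, at 115 CPM. That liver also had the highest Ciart and a Per1 near the top. Zbtb16, a transcription factor, was at 43.0 ± 9.58 and 66.7 ± 13.1 CPM (SD, n = 4 in each), which is 0.63 on the log2 scale, with a standard error of 0.18 and an adjusted p of 1.00 in the edgeR fit. Of 10 genes that follow body temperature, 0 passed, with 3 higher, 7 lower, 1 (Hspa1b) at an unadjusted p under 0.05, and a median range of 0.36, narrower than the 0.51 of all genes tested. The widest of them were Hspa1a, Hspa1b, Rbm3 and Hspa8, with ranges from 0.51 to 0.94. Of 10 tested genes of feeding and fasting (Pnpla3 had too few counts), 0 passed, with 4 higher and 6 lower. Fgf21, a fasting hormone, reached 5.94 CPM in 4-HPAA replicate 4 and had the widest range, 3.69 on the log2 scale, and Pdk4, a kinase that spares glucose, ran from 2.26 CPM in normal saline replicate 2 to 9.90 in normal saline replicate 1, the second with r = 0.719 to the contrast. Igfbp1 ran from 88.4 to 378 CPM and Fasn from 179 to 439 CPM. The part of feeding or stress in the order of the livers was not tested.

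The genes whose pattern was most like that of the contrast of activators against day and evening genes were ranked among 11989 genes with a mean of at least 1 CPM, as a description over 8 livers. Npas2, at 1 to 6 counts per library, is among the activators of this contrast, and the ranking was not repeated without it. At the positive end were Ttpa, the vitamin E transfer protein of the liver (r = 0.974, 443 to 570 CPM), Rab30, a small GTPase (r = 0.972, 12.6 to 24.7 CPM), Nom1, Ssb and Cyp4a10, with r from 0.952 to 0.967. Rab30 had a range of 0.97 on the log2 scale. Cyp4a10, a fatty acid hydroxylase, ran from 396 to 661 CPM, and has close paralogs with which reads could be shared. At the negative end were Nfkb2, a subunit of NF-κB (r = -0.976, 4.59 to 6.21 CPM), Wdr1, Mcoln1, Tbc1d10a and Ngef, with r from -0.956 to -0.938. Their ranges were 0.37 to 0.60 on the log2 scale, narrower than that of Arntl. They are extremes picked from many genes and were not tested.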

How the data were processed

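Liver RNA of 8 mice was sequenced as paired-end reads of 100 bp. The authors checked reads with FastQC 0.11.9 and pseudo-aligned them with kallisto at standard parameters to GRCm38.p6 transcripts, and deposited estimated counts per transcript and mouse, without normalization or pooling. Each of the 8 columns bears the name of a mouse.

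The transcripts were assigned to genes with the GENCODE M21 annotation (116728 of 119414 matched), and their estimated counts were added up and rounded. Transcripts left out held 0.703% to 1.06% of a library. The 12883 genes that reached 10 counts in all libraries entered the quasi-likelihood F test of edgeR 4.0.16 (R 4.3.3, TMM), Benjamini-Hochberg adjusted over them all, with calls at 0.05. The standard error was taken as the log2 fold change over the root of F. Log2 CPM used a prior count of 2. CPM per kilobase used annotated transcript lengths weighted by counts. At the depth of these libraries the spread between mice sets the precision, except for Arntl and Npas2, whose low counts add counting error. Nothing says which cage or day each mouse came from.

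Correlations used exact permutation of all 40320 pairings. Alternatives were DESeq2 1.42.0, RLE, total counts, other filters, a prior count of 0.5, a replicate block and libraries left out. The steps were tested on simulated data. The clock genes and the companion lists were chosen with earlier results of these data known. Genes named are the 10 clock genes, up to 4 genes per list with the widest range over the livers, the 5 genes at each end of the ranking against the contrast, and a few more that the text says were named after their values were seen.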

Additional observations from a re-analysis of the deposited data

Results flagged for a closer look

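The clock genes, the contrasts, the sums of marker genes and the total counts were looked at in each infusion group, 42 sets of 4 libraries in all. In 2 sets the most distant library lay beyond Dixon's limit for 4 samples, which chance passes in about 1 of 20 sets. Both were the red cell markers. Normal saline replicate 2 was at 2557 CPM against 246 to 376 in the rest of its group, a gap of 0.944 of the range, and 4-HPAA replicate 4 was at 734 CPM against 152 to 163, a gap of 0.981. No clock gene and no contrast stood apart in this way in either group.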

How the results depend on the processing

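DESeq2 called 2 genes, Zfp36l2 and Ggnbp1, and leaving out each library gave 0 to 1 (CAAA01147332.1 without 4-HPAA replicate 1; edgeR's quasi-likelihood test). RLE, total counts, the other filters, the replicate block and the 2 libraries rich in red cell transcripts left out together, an alternative chosen after seeing the data, gave 0. No clock gene passed under any alternative. When single libraries were dropped, log2 fold changes ran from -0.28 to 0.44 for Arntl, -0.21 to 0.18 for Clock, -0.0271 to 0.39 for Nr1d1, -0.0636 to 0.30 for Dbp, -0.27 to 0.0499 for Ciart and -0.0552 to 0.30 for Cry1, so the direction of these 6 rested on single libraries; that of Clock was also 0.0004 without a filter. With both red-cell-rich libraries left out, Arntl was at -0.39 and Cry1 at -0.17.

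The labels do not say that mice of the same number were paired, so the main fit had no block. The deviations of same-numbered libraries correlated at 0.0398 to 0.481, with 3 of the 4 pairs over 0.1. Those of differently numbered libraries correlated at -0.477 to 0.466. Of the 8 libraries, 4 were closest to their own number. Whether same-numbered mice shared a batch was not tested. With the replicate block 0 genes passed, as without it, and Per1 was at -0.21, with an unadjusted p of 0.0340 against 0.176 without the block (edgeR, adjusted p = 1.00 in both). With replicate means subtracted (the block), only 4 independent differences remain, so r was not tested; it was 0.968 for Arntl and Clock, -0.903 for Arntl and Dbp, -0.848 for Arntl and Nr1d1 and 0.911 for Arntl and Cry1.

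With each liver left out, r of Arntl ran from 0.922 to 0.967 with Clock, -0.952 to -0.837 with Nr1d1, -0.944 to -0.877 with Dbp, -0.927 to -0.493 with Per1 and -0.298 to 0.241 with Per2. The adjusted p then rose above 0.05 without 4 of the livers for Clock (normal saline replicates 3 and 4, 4-HPAA replicates 1 and 3), 6 for Nr1d1 (all but normal saline replicate 2 and 4-HPAA replicate 2) and 5 for Dbp (normal saline replicates 1, 3 and 4, 4-HPAA replicates 1 and 3), with a highest value of 0.176. Fewer livers leave fewer permutations. Without the 2 farthest livers these r were 0.826, -0.888 and -0.927. On total counts r was -0.863 with Nr1d1 (adjusted p = 0.0525) and 0.00843 with Per2, and without the red-cell-rich libraries -0.949 with Nr1d1, just short of the threshold. The cause of these shifts was not tested. Against the smaller of the SDs of the groups, the group difference in the contrasts moved by more under 1 alternative, to -0.092 for Cry1 minus the Per genes without the red-cell-rich libraries. With single livers left out it ran from -0.44 to 0.20 for the activators, -0.38 to -0.13 for the Per genes and 0.04 to 0.49 for Cry1.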
